A study of Mus musculus with 8 samples.

Results

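Major histocompatibility complex (MHC) class II genes were followed in atherosclerotic lesions of mice that received an interleukin-1β (IL-1β) antibody and of mice given control immunoglobulin G (IgG). The group comprised 10 genes of the 24391 in the deposited count table, taken by symbol. They were Ciita, the transactivator of class II transcription; Cd74, which encodes the invariant chain; the classical chain genes H2-Aa, H2-Ab1 and H2-Eb1; the peptide-exchange chain genes H2-DMa, H2-DMb1 and H2-DMb2; and the exchange-inhibitor chain genes H2-Oa and H2-Ob. All 10 passed the filter on low counts. They were selected on their measured counts in this same comparison of antibody with IgG, in which earlier results had shown lower levels, so the fold changes below describe that choice and test nothing.

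Bulk RNA was sequenced from the brachiocephalic artery, a branch of the aortic arch in which advanced plaques form, with 1 animal per library. The 2 groups were 4 C57BL/6 mice injected with the IL-1β antibody and 4 C57BL/6 mice injected with IgG. All 8 had eaten a Western diet for 18 weeks and were wild type within a smooth muscle cell (SMC) lineage-tracing line. The promoter of that line, any other allele, and the dose and timing of the injections were not given in the sources used here. The labels call each sample a mixture of smooth muscle, epithelial, macrophage and other cells, so each value averages over the whole vessel segment.

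Class II molecules are αβ pairs that carry peptides from the endosome to the surface of antigen-presenting cells, where CD4 T cells read them. The invariant chain escorts new pairs and blocks their groove, H2-DM then helps exchange the invariant chain fragment for antigen peptides, and H2-O, found mainly in B cells, some dendritic cells and thymic epithelium, holds H2-DM back. CIITA does not bind DNA itself and is recruited by factors already on the X and Y boxes of class II promoters, and interferon-γ induces it in macrophages and smooth muscle cells.

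The promoters are shown because 1 arrangement of letters recurs in genes that otherwise differed widely in level. RefSeq promoter windows (GRCm38.p6, 300 bases each) were found for 7 of the 10 genes, in 8 windows. The 6 stretches below, all on chromosome 17 and printed on the strand of the gene, carry AAC of the X box region and TGATTGG, which holds the inverted CCAAT letters of the Y box, in capitals.
H2-Aa: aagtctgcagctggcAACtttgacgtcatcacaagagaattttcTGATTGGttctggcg
H2-Eb1: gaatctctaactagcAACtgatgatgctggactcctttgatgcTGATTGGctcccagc
H2-DMb1: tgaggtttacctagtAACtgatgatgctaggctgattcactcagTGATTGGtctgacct
H2-DMb2: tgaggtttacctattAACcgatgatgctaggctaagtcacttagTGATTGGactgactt
H2-Oa: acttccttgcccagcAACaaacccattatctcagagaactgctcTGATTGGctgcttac
H2-Ob: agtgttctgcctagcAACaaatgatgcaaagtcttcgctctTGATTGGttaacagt

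In GRCm38.p6 these lie at chr17:34287859-34287917 on the minus strand for H2-Aa and, on the plus strand, at chr17:34305763-34305820 for H2-Eb1, chr17:34153084-34153142 for H2-DMb1, chr17:34145113-34145171 for H2-DMb2, chr17:34092290-34092348 for H2-Oa and chr17:34238805-34238860 for H2-Ob. TGATTGG, searched on both strands, was present in the windows of 6 of the 7 genes, and in 2568 of 32851 RefSeq promoter windows of the same length (7.82%). Its first letter lay 45 bases before the annotated start in H2-Oa, 50 in H2-Aa, 59 in H2-Ob, 61 in H2-Eb1, 63 in H2-DMb1 and 92 in H2-DMb2. The same 6 genes had AAC on the gene strand 26 to 29 bases before TGATTGG, counted between first letters, as did 62 windows in all (0.189%). That spacing was set after the 6 sequences had been seen. The 6 are class II chain genes of the same family, H2-DMb1 and H2-DMb2 among them. They are not independent cases, so the share is a description. The windows of H2-DMa, at chr17:34122582-34122881 and chr17:34125268-34125567, held no TGATTGG. Sequence elsewhere in this gene was not searched, so the absence holds for these windows alone. Promoters of Ciita, Cd74 and H2-Ab1 were not used here.

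Each library held 20137336 to 29453014 counts assigned to genes, so that 3 counts correspond to 0.101 to 0.146 CPM (counts per 1000000 on library sizes scaled with the trimmed mean of M values, TMM). Markers of macrophages, smooth muscle and endothelium, fixed as lists, were detected in all 8 libraries. In IgG animal 2, 24.4% of alignments were assigned to genes and 48.0% were left out for aligning to several places. The other libraries had 27.9% to 34.9% assigned and 35.2% to 43.0% left out for that reason. One library stood apart in thymic epithelium markers. IgG animal 1 had a summed level of 54.2 CPM for these, against 2.71 to 3.24 CPM in antibody lesions and 2.50 to 2.81 CPM in the other IgG lesions. The thymocyte gene Rag1 reached 38.8 CPM in antibody animal 2 and 46.3 CPM in IgG animal 1, against 0.0721 to 7.61 CPM in the other 6 libraries. Thymic epithelium and B cells also make class II molecules, so fold changes and within-group correlations are also given without 1 or both of these animals, and the part of thymic tissue in the values was not tested.

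Per kilobase of the authors' exon length, Cd74 and the classical chain genes stood above the rest, which spread over a wide range. Mean level over the 8 libraries, in RPKM (CPM divided by kilobases of exon), was 327 for Cd74, 243 for H2-Aa, 167 for H2-Ab1 and 134 for H2-Eb1. Among the 15980 genes tested these ranked 144, 210, 318 and 397 by level. The peptide-exchange genes were far lower, at 20.2 RPKM for H2-DMb1 (rank 3436), 11.7 RPKM for H2-DMa (rank 5934) and 2.20 RPKM for H2-DMb2 (rank 11930). Ciita itself stood at 5.54 RPKM, rank 9263. The H2-O chains closed the order, with 1.33 RPKM for H2-Ob (rank 13036) and 0.441 RPKM for H2-Oa (rank 14839). Each gene in this order was higher than the next within 8 of 8 libraries. The ratio within a library was 1.182 to 1.319 for H2-Ab1 over H2-Eb1, 1.90 to 2.40 for H2-DMa over Ciita and 1.01 to 2.53 for H2-DMb2 over H2-Ob. Between animals the levels varied more: except between H2-Eb1 and H2-DMb1 and between Ciita and H2-DMb2, the ranges of neighbours over the 8 libraries overlapped.

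**Figure D1:**
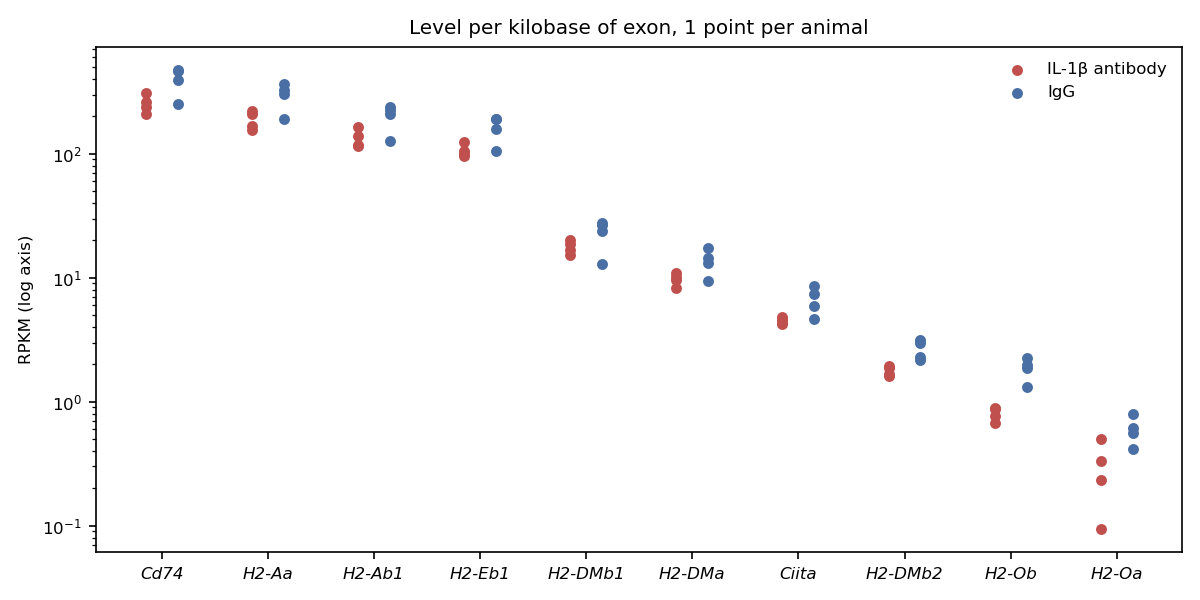
Level of each gene in RPKM (log axis), 1 point per animal, with antibody lesions in red left of IgG lesions in blue. Genes are ordered by mean level, from Cd74 at 327 RPKM to H2-Oa at 0.441 RPKM, with a gap below H2-Eb1.

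The 10 genes together took 0.0905%, 0.106%, 0.0793% and 0.116% of assigned counts in antibody animals 1 to 4, against 0.0975%, 0.169%, 0.146% and 0.178% in IgG animals 1 to 4. IgG animals 2 to 4 lay above all antibody animals, and IgG animal 1 lay among them. In a bulk sample, fewer class II-bearing cells and less class II RNA per cell cannot be told apart.

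Ciita, whose product switches the whole set on, was low and even across treated lesions. It had 27.3, 25.4, 26.02 and 28.7 CPM in antibody animals 1 to 4, against 27.7, 51.0, 35.6 and 43.9 CPM in IgG animals 1 to 4. The 4 antibody values lay close together, IgG animal 1 fell inside their range, and the other 3 IgG values lay above it. The mean was 26.9 ± 1.49 CPM in antibody lesions and 39.6 ± 10.1 CPM in IgG lesions (SD, n = 4 each), a fitted ratio of 0.679 and a log2 fold change of -0.56 ± 0.18 (SE). Ciita spans 10480165 to 10527733 on chromosome 16 of mm9, with 22 exons in the deposited annotation.

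Cd74 was the most abundant of the 10. It had 335, 373, 299 and 437 CPM in antibody animals 1 to 4, against 359, 672, 562 and 661 CPM in IgG animals 1 to 4. IgG animals 2 to 4 stood above every antibody animal, and IgG animal 1 did not. Group means were 361 ± 59.3 CPM with the antibody and 563 ± 145 CPM with IgG (SD, n = 4 each), and the log2 fold change was -0.64 ± 0.21 (SE). The gene lies on chromosome 18, apart from the chain genes.

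The classical chain genes repeated that arrangement of animals. H2-Aa, the α chain gene of I-A, had 178, 223, 166 and 237 CPM in antibody animals 1 to 4, against 205, 328, 352 and 394 CPM in IgG animals 1 to 4. H2-Ab1, its β chain partner, had 141, 165, 139 and 197 CPM in antibody animals, against 152, 268, 251 and 285 CPM in IgG animals. H2-Eb1, the β chain gene of I-E, had 167, 176, 159 and 209 CPM in antibody animals, against 175, 318, 267 and 320 CPM in IgG animals. For all 3 genes IgG animal 1 lay within the antibody range and IgG animals 2 to 4 lay above it. The log2 fold changes were -0.67 ± 0.21, -0.57 ± 0.20 and -0.60 ± 0.19 (SE) for H2-Aa, H2-Ab1 and H2-Eb1. In mm9 these genes are neighbours on chromosome 17, at 34419696 to 34424716 on the minus strand for H2-Aa, 34400172 to 34406363 for H2-Ab1 and 34442812 to 34453619 for H2-Eb1.

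C57BL/6 mice carry an MHC haplotype in which the I-E α chain gene is not transcribed, and the deposited table lists it as H2-Ea-ps. It had 1 count in the 8 libraries together. H2-Eb1 transcripts were thus measured at more than 100 CPM in every library beside a transcript of its partner chain that was all but undetected.

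**Figure D2:**
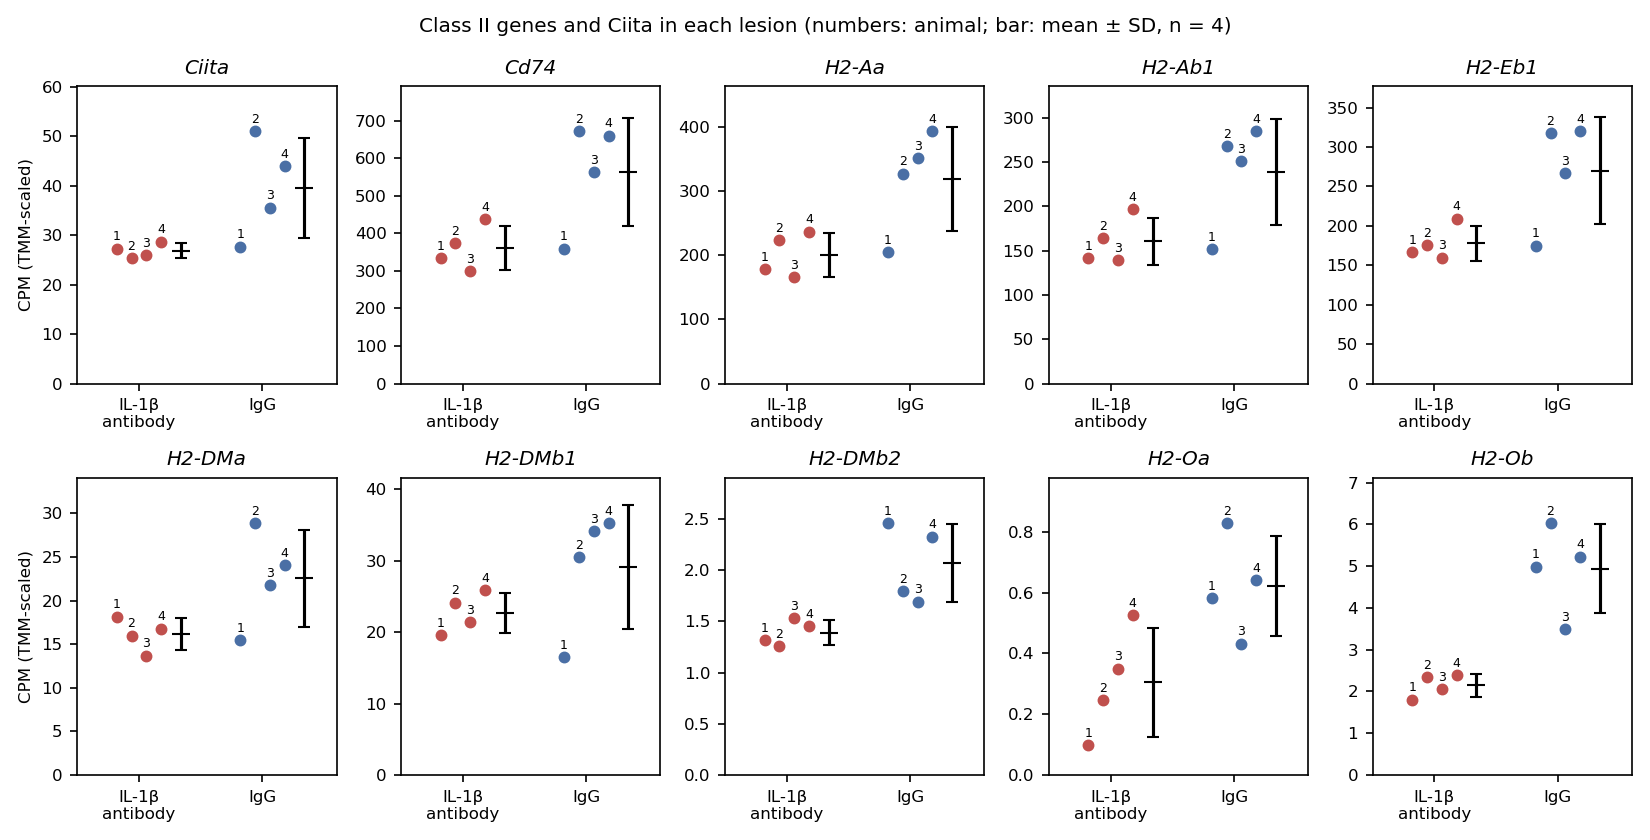
TMM-scaled CPM of the 10 genes in each lesion, with numbered points for animals (antibody in red on the left, IgG in blue on the right) and bars for the mean ± SD of 4 animals; every axis starts at 0. For Ciita, Cd74 and the classical chain genes, IgG animal 1 sits level with the antibody animals, while for H2-DMb2 and H2-Ob all 4 IgG points lie above all 4 antibody points.

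The H2-DM genes, whose products edit the peptide in the groove, split. H2-DMa and H2-DMb1 had their lowest IgG value in IgG animal 1, like the classical chains, and H2-DMb2 had its highest there. H2-DMa had 18.1, 16.0, 13.7 and 16.8 CPM in antibody animals 1 to 4, against 15.5, 28.9, 21.8 and 24.1 CPM in IgG animals 1 to 4, with a log2 fold change of -0.48 ± 0.18 (SE). H2-DMb1, the main β chain gene here, had 19.6, 24.1, 21.4 and 25.8 CPM in antibody animals, against 16.6, 30.6, 34.1 and 35.3 CPM in IgG animals. IgG animal 1 was the lowest of all 8 for H2-DMb1, and the 95% interval of its log2 fold change ran from -0.85 to 0.14 around -0.36.

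H2-DMb2, a second β chain gene beside H2-DMb1, ordered the animals otherwise. It had 1.32, 1.26, 1.53 and 1.46 CPM in antibody animals 1 to 4, against 2.46, 1.80, 1.69 and 2.33 CPM in IgG animals 1 to 4. All 4 IgG values lay above all 4 antibody values, and IgG animal 1 was the highest of the IgG lesions rather than the lowest. Its log2 fold change was -0.57 ± 0.22 (SE), on 27 to 72 counts per library. The level of this gene is uncertain, because its transcript is 92.8% identical to that of H2-DMb1 over 1231 aligned positions (GENCODE M21) and 26.8% of its 50-base windows occur in H2-DMb1, and reads that align to several places were left out of the counts. Such reads are lost from H2-DMb1 too. The levels of both genes, their places in the order of levels and the ratios that use them share this limit. The compared transcripts have 1404 bases for H2-DMb1 and 1424 for H2-DMb2. The deposited exons have 1284 bases for H2-DMb1 and 786 for H2-DMb2. How much of those counted exons the 2 genes share was not computed. In mm9 H2-DMb2 spans 34282361 to 34288040 and H2-DMb1 34290136 to 34297174, with H2-DMa at 34259777 to 34276046, all on chromosome 17.

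H2-Ob, the β chain gene of the H2-DM inhibitor, had the widest separation of the 10. It had 1.81, 2.35, 2.06 and 2.39 CPM in antibody animals 1 to 4, from 37, 67, 47 and 59 counts, against 4.99, 6.04, 3.496 and 5.23 CPM in IgG animals 1 to 4, from 146, 131, 97 and 155 counts. The lowest IgG lesion exceeded the highest antibody lesion, and IgG animal 1 was neither the lowest nor the highest of its group. The mean was 2.15 ± 0.273 CPM with the antibody and 4.94 ± 1.06 CPM with IgG (SD, n = 4 each), with a log2 fold change of -1.19 ± 0.22 (SE, 95% interval -1.68 to -0.71). The gene lies at 34375850 to 34382853 on chromosome 17 of mm9.

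H2-Oa, its α chain partner, was close to the detection floor. It had 0.0976, 0.245, 0.350 and 0.526 CPM in antibody animals 1 to 4, from 2, 7, 8 and 13 counts, against 0.581, 0.830, 0.433 and 0.641 CPM in IgG animals 1 to 4, from 17, 18, 12 and 19 counts. Antibody animal 4 lay above IgG animal 3, so the groups overlapped. The log2 fold change of -0.99 had a 95% interval of -2.02 to 0.03, too wide at this depth to place it against that of H2-Ob. H2-Oa spans 34229324 to 34232179 on chromosome 17 of mm9.

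All 10 genes had a log2 fold change below 0, where 52.3% of the genes tested did, and their median was -0.59 against -0.01 over all genes. The groups did not overlap for 2 of the 10 genes, H2-DMb2 and H2-Ob, and were separated in that direction for 1.25% of all genes. No class II gene was separated in the opposite direction, as 0.713% of all genes were. In the edgeR quasi-likelihood fit, adjusted by Benjamini-Hochberg over 15980 genes, 0 of the 10 passed an adjusted p of 0.05 (0% of all genes did), and each had an adjusted p of 0.9997. At an unadjusted p under 0.05, 8 of the 10 were lower, all but H2-DMb1 and H2-Oa, beside 2.06% of all genes. DESeq2 called H2-Ob (adjusted p = 0.00264; 0.0501% of the genes with an adjusted p were called), limma-voom with quality weights called 0 of the 10 (0.0125% of all genes were called), and over all alternatives the adjusted p of H2-Ob ran from 0.00264 to 0.99998. Because this contrast chose the genes, nothing is read from these counts.

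**Figure D3:**
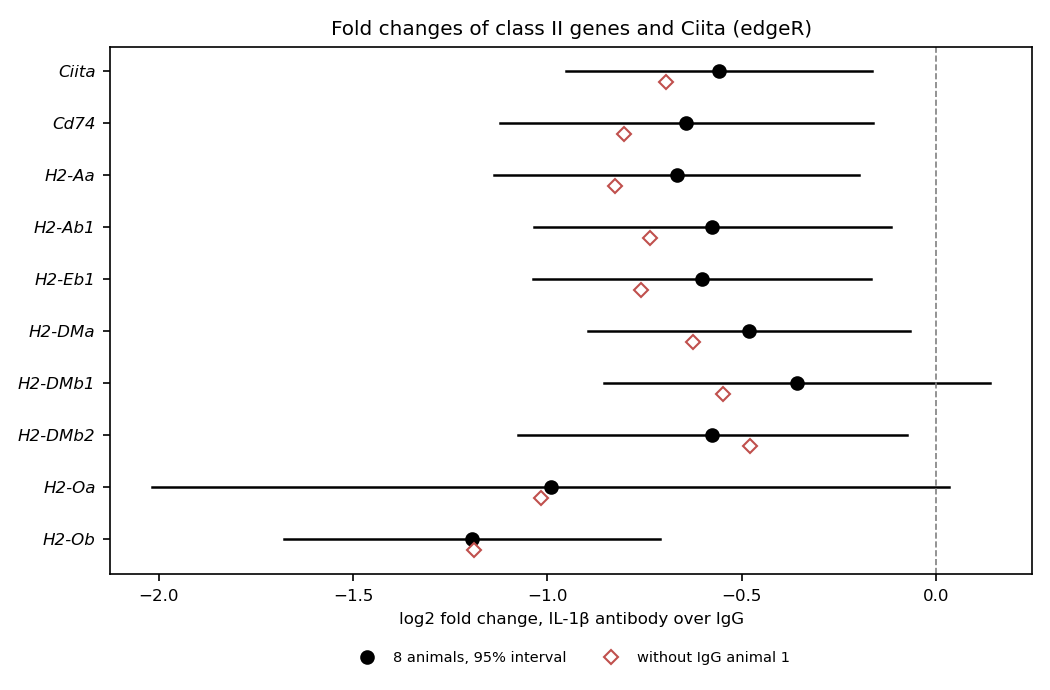
log2 fold change of each gene, IL-1β antibody over IgG, from edgeR with 95% intervals (black, 8 animals), and the estimate without IgG animal 1 (open diamonds). All estimates lie left of 0, and the intervals of H2-DMb1 and H2-Oa cross it. Leaving out IgG animal 1 shifts H2-DMb2 to the right, leaves H2-Ob almost unmoved and shifts the other genes further left.

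Leaving out IgG animal 1 altered the overlap more than any direction. Without it the groups were separated for 9 of the 10 genes, H2-Oa being the exception, where 4.77% of all genes were separated in that direction. The log2 fold changes were then -0.70 for Ciita, -0.80 for Cd74, -0.82 for H2-Aa, -0.74 for H2-Ab1 and -0.76 for H2-Eb1. H2-DMb1 had -0.55, against -0.36 with all 8 animals, and H2-Ob kept -1.19. H2-DMb2 moved toward 0, to -0.48 from -0.57. At an unadjusted p under 0.05, 8 genes were lower (4.04% of all genes), here all but H2-DMb2 and H2-Oa. The adjusted threshold in edgeR was passed by 0 (0.00626% of all genes passed). When antibody animal 2 and IgG animal 1, the libraries high in Rag1, were both left out, 9 genes were separated (6.92% of all genes) and 8 were lower at that unadjusted level (3.44%). In that fit 0 passed the adjusted threshold (0.00633%), the median was -0.75 and H2-Ob had -1.24. A further fit left out IgG animal 2 and antibody animal 3, the libraries with the lowest shares of assigned alignments. There the median was -0.45, Ciita had -0.38 and H2-Ob had -1.05. The unadjusted p (edgeR quasi-likelihood F-test) was 0.0376 for H2-DMb2, 0.0038 for H2-Ob and above 0.05 for the other genes.

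The spread between animals was itself unequal. The SD of log2 CPM was larger in the IgG group for 9 of the 10 genes, H2-Oa being the exception, while it was larger in the IgG group for 65.7% of all genes tested. For Ciita the highest animal exceeded the lowest 1.13-fold in antibody lesions and 1.84-fold in IgG lesions. For H2-DMb1 these ratios were 1.32 in antibody lesions and 2.13 in IgG lesions. IgG animal 1 supplied the lowest IgG value for 7 of the 10 genes.

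The ratio between partner chains, taken on RPKM, described the balance within each heterodimer. H2-Aa stood to H2-Ab1 at 1.41, 1.51, 1.33 and 1.34 in antibody animals 1 to 4, against 1.504, 1.36, 1.56 and 1.54 in IgG animals 1 to 4, a narrow range shared by both groups. H2-DMa stood to the summed H2-DMb genes at 0.647, 0.472, 0.443 and 0.461 in antibody animals, against 0.582, 0.668, 0.457 and 0.477 in IgG animals, again with overlap. H2-Oa stood to H2-Ob at 0.138, 0.266, 0.433 and 0.561 in antibody animals, against 0.296, 0.350, 0.315 and 0.312 in IgG animals, a wide range in the antibody group where H2-Oa rested on as few as 2 counts.

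The inhibitor chains relative to the exchange chains gave H2-O to H2-DM ratios of 0.0276, 0.0370, 0.0410 and 0.0435 in antibody animals 1 to 4, against 0.0956, 0.0701, 0.0411 and 0.0571 in IgG animals 1 to 4. No IgG value fell below the antibody range, but antibody animals 3 and 4 stood beside IgG animal 3, which lay inside that range. The highest ratio was in IgG animal 1, the library with the thymic epithelium markers.

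Within groups, several class II genes had values that went with those of Ciita from animal to animal, though no relation passed correction. This variation does not use the difference between groups: the group mean of log2 CPM was taken off each gene, and the deviations of the 8 animals were correlated, with two-sided exact permutation of animals within each group. Pearson's r with Ciita was 0.922 for H2-DMa (exact permutation p = 0.0122, adjusted over 9 relations 0.0521), 0.906 for H2-Eb1 (exact permutation p = 0.0156, adjusted 0.0521) and 0.864 for Cd74 (exact permutation p = 0.0174, adjusted 0.0521). Spearman's rho was 0.857, 0.762 and 0.786 for these genes (exact permutation p = 0.0556, 0.0590 and 0.0590, each 0.133 adjusted). H2-Ab1 had r = 0.803 (exact permutation p = 0.0295, adjusted 0.0664) and rho = 0.690 (exact permutation p = 0.0451, adjusted 0.133).

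With TMM scaling, 0 of the 9 relations passed an adjusted p of 0.05 (exact permutation; 4 by r and 1 by rho had an unadjusted p under 0.05). Those of 3 genes, Cd74, H2-Eb1 and H2-DMa, passed by r with DESeq2's size factors (exact permutation, adjusted p = 0.0417) or with total counts (adjusted p = 0.0260). Without IgG animals 1 and 2, the farthest from the median of Ciita, r was 0.770 for H2-Eb1, 0.607 for Cd74, 0.547 for H2-DMa and 0.535 for H2-Ab1. Without IgG animal 1 alone, r was 0.806 for H2-DMa, 0.730 for H2-Eb1 and 0.629 for Cd74, and it was 0.424 for H2-Ab1, whose value with all 8 animals thus rests in part on that animal.

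H2-Aa and H2-DMb1 had lower values with Ciita, an r of 0.671 and 0.712 (exact permutation p = 0.193 and 0.240, both 0.326 adjusted) and rho of 0.452 for both (exact permutation p = 0.413 and 0.431, both 0.484 adjusted). Without IgG animals 1 and 2 their r was 0.382 and 0.211, and without IgG animal 1 alone it was 0.08 and -0.11, so these values rest on that animal. H2-DMb2, H2-Oa and H2-Ob showed no relation that could be told from 0, with r of -0.37, 0.309 and 0.409 (exact permutation p = 0.517, 0.253 and 0.554, adjusted 0.554, 0.326 and 0.554) and rho of -0.10, 0.548 and 0.595 (exact permutation p = 0.750, 0.122 and 0.219, adjusted 0.750, 0.219 and 0.328). Without IgG animals 1 and 2 these 3 genes had r of 0.794, 0.357 and 0.670. With 1 animal left out, r ran from 0.04 (without IgG animal 2) to 0.826 (without IgG animal 1) for H2-Ob, and from 0.121 (without IgG animal 2) to 0.586 (without antibody animal 1) for H2-Oa. For H2-DMb2 it ran from -0.62 (without IgG animal 3) to 0.283 (without IgG animal 1).

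**Figure D4:**
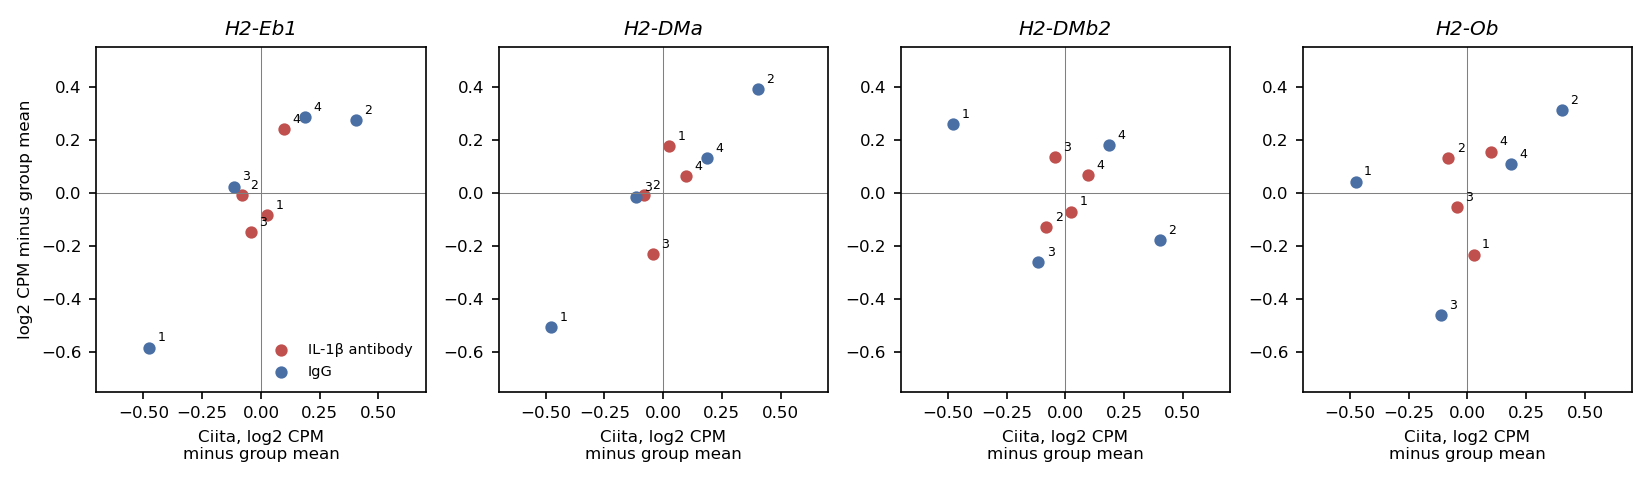
Deviation of 4 class II genes from their group mean (vertical, log2 CPM) against that of Ciita (horizontal, log2 CPM), 1 numbered point per animal, antibody in red and IgG in blue. H2-Eb1 and H2-DMa rise with Ciita, with IgG animal 1 at the lower left, while the same animal lies at the upper left for H2-DMb2.

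**Figure D5:**
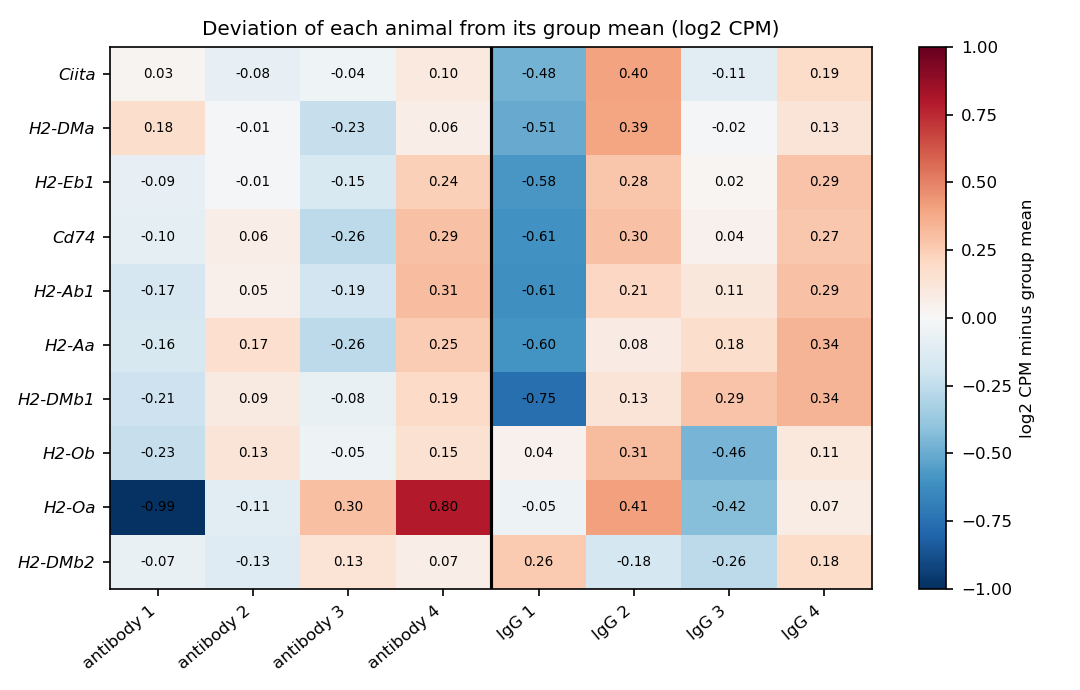
Log2 CPM of each gene in each animal minus the mean of its group, antibody animals left of the line and IgG animals right of it; red is above and blue below the group mean. IgG animal 1 is below its group mean by 0.48 to 0.75 for the upper 7 genes but not for H2-Ob, H2-Oa and H2-DMb2.

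The deviations were also compared with the average of H2-Aa, H2-Ab1, H2-Eb1 and Cd74. H2-DMb1 had r = 0.942 with that average, Ciita 0.821 and H2-DMa 0.814, while H2-Oa had 0.326, H2-Ob 0.240 and H2-DMb2 -0.44. These values depended on IgG animal 1: without it r was 0.774 for H2-DMb1, 0.476 for Ciita, 0.466 for H2-DMa, 0.574 for H2-Oa, 0.640 for H2-Ob and 0.207 for H2-DMb2. Genes outside the set with the highest r, over the same 8 libraries, were Cilp2 (0.974), Trmt6 (0.972), Col12a1 (0.971), Sash1 (0.968), Cd33 (0.957), Mir1898 (0.956), Mdk (0.955) and Lonrf1 (0.953). Cd33, a sialic acid-binding receptor of myeloid cells, had 11.2 ± 1.78 CPM in antibody lesions and 14.4 ± 3.15 CPM in IgG lesions (SD, n = 4 each). Col12a1, a fibril-associated collagen gene, had 151 ± 34.1 CPM in antibody lesions and 182 ± 56.2 CPM in IgG lesions. Cilp2, with the highest r, was higher with the antibody, at 2.86 ± 0.593 CPM against 1.73 ± 0.718 CPM with IgG. The log2 fold change was 0.73 for Cilp2, 0.14 for Lonrf1 and 0.03 for Trmt6. It was negative for Col12a1, Sash1, Cd33, Mir1898 and Mdk. These 8 had the highest r of the genes tested, with Gm, Rik and LOC models left out, and are a description. Without IgG animal 1 their r lay between 0.834 (Lonrf1) and 0.920 (Cilp2), and without antibody animal 2 between 0.942 (Lonrf1) and 0.979 (Cilp2).

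The macrophage marker sum ran from 4803 to 6927 CPM in antibody lesions and from 3883 to 10608 CPM in IgG lesions, with IgG animal 1 the lowest. All 9 markers had log2 fold changes below 0 (52.3% of all genes did), with a median of -0.31. In edgeR 0 passed, and 1 was lower at an unadjusted p under 0.05 (2.06% of all genes). The most abundant genes of the list were Lyz2, at 3775 ± 817 CPM with the antibody and 5274 ± 2345 CPM with IgG, and Mpeg1, at 796 ± 132 CPM with the antibody and 957 ± 376 CPM with IgG (SD, n = 4 each). Within groups, the macrophage list correlated with H2-DMb1 (r = 0.900, exact permutation p = 0.0069, rho = 0.810) and H2-Aa (r = 0.887, exact permutation p = 0.0052, rho = 0.881), with adjusted p of 0.139 over 40 relations for both. The value was lower for Ciita (r = 0.435, rho = 0.143, exact permutation p = 0.519, adjusted 0.875). Without the 2 animals farthest from the median of the macrophage list, r was 0.863 for H2-DMb1, 0.861 for H2-Aa and -0.12 for Ciita. Without IgG animal 1 alone it was 0.779 for H2-DMb1, 0.695 for H2-Aa and -0.45 for Ciita.

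Of the 40 relations between the 10 genes and macrophage, B cell, dendritic cell and smooth muscle lists, 0 passed an adjusted p of 0.05 (exact permutation, smallest adjusted 0.139), and 6 by r and 5 by rho had an unadjusted p under 0.05. With the macrophage list as a covariate in edgeR, the log2 fold change was -0.39 for H2-Aa, -0.03 for H2-DMb1 and -1.24 for H2-Ob, and the median of the 10 was -0.41. This fit describes the values, and the part of macrophage content in the differences between groups was not tested.

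The summed B cell list was 37.4 to 48.9 CPM in antibody lesions and 52.9 to 65.6 CPM in IgG lesions. Of its 9 markers, 9 had log2 fold changes below 0 (52.3% of all genes did), with a median of -0.82. In edgeR 0 passed, and 4 were lower at an unadjusted p under 0.05 (2.06% of all genes). Most of the summed list was Cd22, at 35.2 ± 3.55 CPM with the antibody and 43.6 ± 9.69 CPM with IgG. The other 8 genes summed to 5.32, 5.75, 7.83 and 9.02 CPM in antibody animals 1 to 4, against 22.8, 13.8, 6.63 and 16.3 CPM in IgG animals 1 to 4. Pax5 was at 0 in at least 1 library. Cd79b, a B cell receptor chain gene, had 1.35 ± 0.321 CPM in antibody lesions and 2.84 ± 0.422 CPM in IgG lesions (SD, n = 4 each).

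Within groups the B cell list correlated with H2-DMb2 (r = 0.821, exact permutation p = 0.0156, adjusted 0.156, rho = 0.810, 0.820 without the 2 farthest animals). It had r = 0.748 with H2-Oa (exact permutation p = 0.0278, adjusted 0.185, rho = 0.667, 0.411 without them) and r = 0.707 with H2-Ob (exact permutation p = 0.0938, adjusted 0.410, rho = 0.405, -0.52 without them), so the value for H2-Ob rests on those animals. Without IgG animal 1 these r were 0.791 for H2-DMb2, 0.878 for H2-Oa and 0.755 for H2-Ob, and without antibody animal 2 they were 0.840, 0.750 and 0.776. For Ciita, Cd74, the classical chains, H2-DMa and H2-DMb1 these r lay between -0.38 and -0.08. With the B cell list as a covariate in edgeR, the log2 fold change was -0.88 for H2-Ob, against -1.19 with no covariate. It was -0.35 for H2-Oa, against -0.99 with none, and -0.29 for H2-DMb2, against -0.57 with none. For Ciita, Cd74, the classical chains, H2-DMa and H2-DMb1 it was more negative with the covariate. Among these Ciita moved least, to -0.57 from -0.56, and H2-DMa moved most, to -0.64 from -0.48. The median over the class II genes was -0.62, against -0.59 with none. The covariate was the mean log2 CPM of the list, not its sum. This fit describes the values and is not a test of B cell content, since all 9 markers of the list were lower with the antibody. The summed list did not overlap between the groups. Without Cd22 the sums overlapped, with 6.63 CPM in IgG animal 3 against 5.32 to 9.02 CPM in antibody animals. The part of B cells in these differences was not tested.

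Dendritic cell markers were split, with 6 of 10 below 0 (52.3% of all genes were) and a median of -0.20. In edgeR 0 passed at either level. Their sum was 337 to 494 CPM in antibody lesions and 215 to 602 CPM in IgG lesions, most of it Itgax, which macrophages also express, at 328 ± 65.8 CPM with the antibody and 304 ± 159 CPM with IgG. Within groups this list had r = 0.795 with H2-Aa (exact permutation p = 0.0104, adjusted 0.139, rho = 0.905), 0.595 without the 2 farthest animals and 0.745 without IgG animal 1. Smooth muscle markers, led by Myh11 and Acta2, had r between -0.26 and 0.313 with the 10 genes.

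The remaining marker lists were read for their levels alone. Plasma cell markers summed to 157 to 224 CPM in antibody lesions and 175 to 305 CPM in IgG lesions, and 4 of the 4 kept had log2 fold changes below 0 (median -1.24; 2, Jchain and Mzb1, at an unadjusted p under 0.05 in edgeR and 0 adjusted). T cell markers summed to 5.32 to 12.6 CPM in antibody lesions and 6.20 to 20.8 CPM in IgG lesions, with 5 of the 5 kept below 0. Their median was -0.53, with 1, Cd3g, at that unadjusted level and 0 adjusted. Over all genes, 52.3% were below 0 and 2.06% were lower at that unadjusted level. Thymocyte, endothelial and smooth muscle lists had medians of -0.04, -0.03 and 0.10, with 0 genes at either level, and of the thymic epithelium list only Ccl25 was kept.

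The genes around the class II set were read from a list of factors, inducers and processing enzymes. Of 45 pathway genes in the table, chosen with earlier results known, 42 were kept, and 34 had a log2 fold change below 0 (81.0%, against 52.3% of all genes). At an unadjusted edgeR p under 0.05 there was 1, H2-Eb2 (2.06% of all genes were lower at that level). In either direction, 0 of the 42 genes passed the adjusted edgeR test. DESeq2 called 0 of them too. Their median log2 fold change was -0.12. The DNA-binding factors that recruit CIITA were near 0: Rfx5 had a log2 fold change of -0.07 ± 0.12 (SE), Rfxap 0.14 ± 0.13 and Rfxank 0.12 ± 0.12. Over the 11 genes of that transcription list, which also held the NF-Y subunits and coactivators, 6 were below 0 and 5 above, with a median of -0.02.

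Of the 11 inducer genes of Ciita kept, 10 had a log2 fold change below 0 (90.9%, against 52.3% of all genes), with a median of -0.16 and 0 past the edgeR test, adjusted or not. Irf1, an interferon-induced activator of Ciita, had 54.8 ± 3.22 CPM in antibody lesions and 62.7 ± 11.5 CPM in IgG lesions (SD, n = 4 each; log2 fold change -0.20 ± 0.13, SE). Ifng itself had 0 to 7 counts per library and was not kept. Nlrc5, the relative of Ciita that activates class I genes, had 68.6 ± 30.1 CPM in antibody lesions and 72.0 ± 31.2 CPM in IgG lesions, with a log2 fold change of -0.07 ± 0.34 (SE).

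Antigen processing genes had log2 fold changes below 0 in 10 of 10 cases (52.3% of all genes did), with a median of -0.25 and 0 past the edgeR test. Ctss, the cathepsin that trims the invariant chain, had 1278 ± 279 CPM in antibody lesions and 1525 ± 698 CPM in IgG lesions (SD, n = 4 each; log2 fold change -0.25 ± 0.32, SE). Ifi30, a thiol reductase of the endosome, had a log2 fold change of -0.36 ± 0.31 (SE), and March1, a ubiquitin ligase that removes class II from the surface, -0.43 ± 0.22 (SE). All 9 macrophage markers lay below 0 as well, and their part in these values was not tested.

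H2-Eb2, a further β chain gene of the class II region, had 0.244, 0.595, 0.262 and 0.485 CPM in antibody animals 1 to 4, from 5, 17, 6 and 12 counts, against 1.47, 0.599, 1.48 and 1.99 CPM in IgG animals 1 to 4, from 43, 13, 41 and 59 counts. The groups were separated, but only just, between antibody animal 2 and IgG animal 2. Its log2 fold change was -1.77 ± 0.44 (SE), and it did not pass the adjusted edgeR test.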

How the data were processed

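The authors deposited a table of raw read counts by gene symbol, made with featureCounts 1.4.6-p4 over exons of the mm9 UCSC annotation, per the file headers, together with each gene's exon length in bases and a table of counts of alignments by status. The header shows no strand option, and reads with several alignments or over more than 1 gene were left unassigned, so antisense reads count for the gene they overlap and near-identical genes are counted from unique reads. Subread, STAR 3.0, DESeq2 and CASAVA are listed without roles, per the submitters' processing notes. Every column of counts was used, and groups came from the sample titles.

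From these, CPM, RPKM (on the deposited exon length) and fits were computed in R 4.3.3. Genes were kept by filterByExpr (minimum count 10, minimum total 15), libraries scaled by TMM, and groups compared with edgeR 4.0.16 (quasi-likelihood F-test, robust) with Benjamini-Hochberg adjustment over all genes kept, at 0.05. Standard errors were derived from the fold change and its F statistic. Positive log2 values mean higher with the antibody. Correlations used log2 CPM (prior count 2) and all 576 permutations within groups, whose smallest p is 0.00174. DESeq2 1.42.0, limma 3.58.1, other scalings, no filter, a replicate block, covariates and omitted animals were alternatives. The fits were tested on simulated data. The 3-count floor covers counting error only.

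The genes, marker lists, pathway list and named genes (all 10 class II genes, pathway genes, the 8 genes most like the classical set outside Gm, Rik and LOC models, and the 2 most abundant markers of lists discussed) were chosen with earlier results of these data known; some named genes are not reported here. Promoters are RefSeq sequences of GRCm38.p6, a later build than that of the counts; the 2 builds' coordinates were not converted.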

Additional observations from a re-analysis of the deposited data

Results flagged for a closer look

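In 2 of the 30 groups of 4 animals examined (the CPM of each gene and the chain ratios), 1 animal lay far from the other 3; chance alone gives about 1 in 20 groups. The ratio of H2-DMa to the summed H2-DMb genes was 0.647 in antibody animal 1, against 0.443 to 0.472 in the other antibody animals, with a gap of 0.857 of the group's whole range. In IgG lesions the same ratio ran from 0.457 to 0.668, so the value is not outside those seen in the study. The ratio of H2-DMb2 to H2-DMb1 was 0.243 in IgG animal 1, against 0.0811 to 0.108 in the other IgG animals, with a gap of 0.836 of the range. In antibody lesions it ran from 0.0854 to 0.117. Reads that align to both of these genes are missing from this ratio. IgG animal 1 combined the lowest H2-DMb1 level with the highest H2-DMb2 level, and it also carried the thymic epithelium markers and the highest summed B cell markers other than Cd22; the part of these in the ratio was not tested.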

How the results depend on the processing

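All 10 genes had log2 fold changes below 0 in each of 19 alternatives, and their median ran from -0.77 (limma-voom with quality weights) to -0.41 (macrophage list as covariate). With 1 animal left out the median ran from -0.75 (without IgG animal 1) to -0.51 (without IgG animal 4). The number past an adjusted p of 0.05 was 0 except in DESeq2, which called 1, H2-Ob; the cause was not tested. Pathway genes and marker relations stayed at 0 calls in every alternative run. Relations with Ciita past 0.05 numbered 3 with DESeq2's size factors, 3 with total counts, and 0 to 4 with 1 animal left out (4 without antibody animal 2); the cause was not tested. Without IgG animal 1 the within-group r of H2-DMb1 with Ciita was -0.11, and that of H2-DMb2 was 0.283, both opposite in sign to the value with all animals. Over the omissions of 1 animal these r ran from -0.11 to 0.853 for H2-DMb1 and from -0.62 to 0.283 for H2-DMb2, the far ends both without IgG animal 3. With the average of the classical genes and Cd74, r of H2-DMb2 was 0.207 without IgG animal 1, -0.45 without antibody animal 2 and 0.316 without both, against -0.44 with all; the r of Ciita with macrophage markers was -0.45, 0.424 and -0.47 in the same fits, against 0.435 with all. The fit without both, and the last 2 sets of correlations, were chosen after seeing the data. Same-numbered animals did not deviate together (correlations 0.293, -0.34, -0.13 and -0.0012 for numbers 1 to 4), and with the replicate number as a block the median was -0.56, with 0 calls. With 4 animals per group, H2-Oa, at 2 to 19 counts per library, was limited by depth.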

Other observations

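Brakes on class II expression were measured beside its inducers. Of 4 such genes, 3 had a log2 fold change below 0 (52.3% of all genes did), and 0 passed the edgeR test, adjusted or at an unadjusted p under 0.05. Prdm1, which represses Ciita in plasma cells, had 6.65 ± 0.586 CPM in antibody lesions and 8.36 ± 2.21 CPM in IgG lesions, and Socs1, which dampens interferon signalling, had 2.44 ± 0.600 CPM in antibody lesions and 2.32 ± 0.585 CPM in IgG lesions (SD, n = 4 each). Cd4, the coreceptor that binds class II molecules, had 10.6 ± 4.81 CPM in antibody lesions and 14.6 ± 8.69 CPM in IgG lesions, and Lag3, an inhibitory class II ligand on T cells, had 5.08 ± 0.900 CPM in antibody lesions and 5.05 ± 1.28 CPM in IgG lesions. Brd2, a bromodomain gene of the class II region that lies between H2-Oa and H2-DMa, had 195 ± 13.2 CPM in antibody lesions and 198 ± 24.6 CPM in IgG lesions, a log2 fold change of -0.03 ± 0.12 (SE). Jchain, which joins secreted antibody molecules, had 3.05 ± 3.22 CPM in antibody lesions and 20.9 ± 14.8 CPM in IgG lesions, and the groups overlapped, with 7.85 CPM in antibody animal 4 and 2.12 CPM in IgG animal 2. These genes were picked from the pathway and marker lists after their values had been seen.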
